A study of Rattus norvegicus with 6 samples.

Results

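The miR-132 and miR-212 pair was followed through small RNA libraries of rat brain. Its members were taken by name: rno-miR-132-3p, rno-miR-132-5p, rno-miR-212-3p and rno-miR-212-5p, which are 4 of the 775 miRNAs in the deposited count table. All 4 had enough counts to be tested, as 454 of the 775 listed miRNAs did. The rats were male Sprague-Dawley animals, bought at an age of 7 weeks, in which both common carotid arteries had been tied off, the 2-vessel occlusion (2VO) model of vascular dementia. Both groups carried this occlusion. The 2VO group (n = 3 libraries) was given vehicle only, which was CMC-Na at 0.5% in a volume of 5 mL/kg. The tilianin-treated 2VO group (n = 3 libraries) was given tilianin, a flavonoid glycoside, at 40 mg/kg in that vehicle each day for 4 weeks. Neither the labels nor the methods say whether a library came from 1 rat or from pooled rats, so p-values here measure the spread between libraries, which may be technical. The labels call the tissue brain, the study elsewhere calls it cortical, and sham-operated rats were not analysed here. The comparison therefore addresses how the miRNAs of 2VO brains differ with and without tilianin, and says nothing of the occlusion itself.

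A miRNA hairpin is cut into a duplex whose strands, the 5p arm and the 3p arm, can each be loaded into Argonaute, and bases 2 to 8 of the loaded strand, the seed, pair with target messages. miR-132 and miR-212 are known to be made from neighbouring hairpins of a single primary transcript that the transcription factor CREB switches on when neurons fire or receive BDNF. In neurons miR-132-3p is known for promoting dendrite growth and shaping synapses.

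The mature sequences are given first because they show which members could share targets and which could share reads. They were taken from RefSeq for rat, build GRCr8, in which all 4 members were matched by name, and are written 5′ to 3′ with the seed in capitals.
miR-132-3p: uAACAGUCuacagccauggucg
miR-212-3p: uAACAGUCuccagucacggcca
miR-132-5p: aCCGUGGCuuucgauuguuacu
miR-212-5p: aCCUUGGCucuagacugcuuacug
The 3p arms carried the same seed, AACAGUC, and in the RefSeq table no mature rat miRNA other than these 3p arms had it. The 5p arms had different seeds, CCGUGGC and CCUUGGC, and no other mature miRNA of the table had either of them. Counted from the 5′ end, the 3p arms were identical at 17 of 22 positions and differed at 5, A10C, C14U, U17C, U20C and G22A, with the base of miR-132-3p written first. The 5p arms were identical at 14 of the first 22 positions and differed at 8. The members were 22 to 24 bases long, so length hardly enters a comparison of their levels.

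The hairpin of miR-132 is shown because it carries both arms that were counted, which are in capitals with the 5p arm first.
Mir132: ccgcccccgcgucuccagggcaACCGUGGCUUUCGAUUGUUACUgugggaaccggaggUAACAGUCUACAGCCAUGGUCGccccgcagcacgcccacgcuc
In the GRCr8 gene table Mir212 and Mir132 were direct neighbours on chromosome 10, in that order, with Hic1 on the side of Mir212 and the long non-coding RNA gene LOC120095261 beyond Mir132. Neither hairpin overlapped another gene of that table. The build behind the counts is not given in the sources used here, so no positions are printed.

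The libraries held 7175872 to 13198776 counts each. Levels are given as CPM, the count of a miRNA over the library total in megareads after TMM scaling in edgeR, and 1 count was worth 0.0772 to 0.154 CPM. The neurone-enriched miR-124-3p was at 55804 to 98573 CPM in every library, and thus abundant throughout. The oligodendrocyte marker miR-219a-5p was listed with 1 count in a single library and 0 in the others. However, miR-219b averaged 526 CPM in the 2VO group and 754 CPM with tilianin. Whether reads of miR-219a-5p were counted under another name was not tested, so its near-absence says nothing of oligodendrocytes in the tissue. The tilianin-treated library labelled replicate 2 stood apart. Its Spearman correlation with the other libraries across the tested miRNAs was 0.936 to 0.957, against 0.983 to 0.992 among the other 5, and it held 11292 CPM of miR-10a-5p, a miRNA of the Hox clusters, where the other libraries held 37.2 to 297. The labels name no brain region for any library, and whether this library was cut from the same region as the others was not tested. If it was not, its levels of miR-132 and miR-212, and the group means and fold changes that include them, would compare regions as well as treatments. Results that rest on this library are therefore given with and without it.

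All 4 arms were plentiful in 5 of the 6 libraries and several times scarcer in tilianin-treated replicate 2. Summed over the members, the level was 3441, 4453 and 6848 CPM in 2VO replicates 1, 2 and 3. It was 4186, 1049 and 5165 CPM in tilianin-treated replicates 1, 2 and 3. As a share of all counts the members made up 0.361 to 0.713% in the 2VO libraries, and 0.407, 0.0950 and 0.547% in the treated libraries. In bulk tissue, fewer cells that express a miRNA and less of it in each cell cannot be told apart.

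rno-miR-132-3p, the better studied arm of its hairpin, was at 395, 445 and 699 CPM in 2VO replicates 1, 2 and 3 (3621, 5770 and 5399 counts). In tilianin-treated replicates 1, 2 and 3 it was at 481, 85.2 and 609 CPM (4432, 553 and 4993 counts). The groups overlapped, since treated replicates 1 and 3 lay inside the range of the 2VO libraries and only treated replicate 2 lay below it. The vehicle-treated (2VO) libraries averaged 513 ± 163 CPM and the tilianin-treated libraries 392 ± 273 CPM (SD, n = 3 libraries each).

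rno-miR-132-5p, the opposite strand of the same hairpin, was at 782, 876 and 1638 CPM in 2VO replicates 1, 2 and 3. The treated libraries had 829, 161 and 1344 CPM in the same order of replicates. As with the 3p arm, the 2VO library labelled replicate 3 was the highest of the 6 and treated replicate 2 the lowest, and the groups overlapped. Averages were 1099 ± 469 CPM with vehicle against 778 ± 593 CPM with tilianin (SD, n = 3 libraries each).

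rno-miR-212-3p, which has the seed of miR-132-3p, was the scarcest member, with 109, 148 and 223 CPM in 2VO replicates 1, 2 and 3. It had 129, 25.9 and 171 CPM in treated replicates 1, 2 and 3, the value of replicate 2 resting on 168 counts. The order of the libraries was again the same at both ends, and the groups overlapped. Its average was 160.2 ± 58.1 CPM with vehicle and 109 ± 74.7 CPM with tilianin (SD, n = 3 libraries each).

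rno-miR-212-5p was the most plentiful member, with 2155, 2983 and 4288 CPM in 2VO replicates 1, 2 and 3. In treated replicates 1, 2 and 3 it had 2747, 777 and 3040.3 CPM. Treated replicate 2 lay below every 2VO library for this arm too, and the other treated libraries lay within the 2VO range. On average it was at 3142 ± 1075 CPM under vehicle and 2188 ± 1231 CPM under tilianin (SD, n = 3 libraries each).

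**Figure D1:**
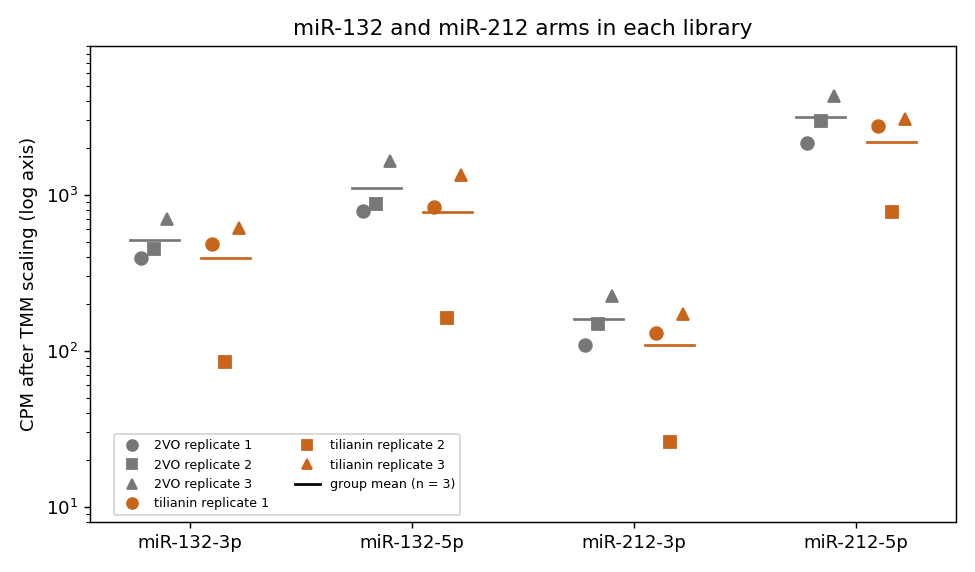
Level of each arm in each library in CPM after TMM scaling, on a log axis, with the 2VO libraries in grey, the tilianin-treated libraries in orange, a marker shape per replicate number and a bar at each group mean (n = 3). Treated replicate 2 is the lowest point of every arm, from 25.9 CPM for miR-212-3p to 777 CPM for miR-212-5p, and the other treated libraries lie inside the range of the 2VO libraries.

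Within a library the order of the arms was always the same, with miR-212-5p highest, then miR-132-5p, miR-132-3p and miR-212-3p. No neighbours in this order changed places in any of the 6 libraries. miR-212-5p ranked between 25 and 68 among the 454 tested miRNAs, and miR-212-3p between 123 and 224, the lower rank of each being in treated replicate 2.

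No member passed the criterion used by the study, an unadjusted p-value below 0.05 with an absolute log2 fold change above 1, in edgeR's quasi-likelihood test across all 454 tested miRNAs. Of all tested miRNAs 1.1% were called lower and 4.63% higher in the treated group, and 0 of 4 members lies near that background. The log2 fold change of treated against 2VO libraries was -0.39 (standard error 0.639) for miR-132-3p, with an approximate 95% interval of -1.89 to 1.12. For miR-132-5p it was -0.50 (standard error 0.687), with an interval of -2.12 to 1.12. miR-212-3p had -0.56 (standard error 0.625) and an interval of -2.03 to 0.91, and miR-212-5p had -0.52 (standard error 0.510) and an interval of -1.72 to 0.68. The Benjamini-Hochberg adjusted p of edgeR's quasi-likelihood test was 0.835 to 0.884 over the members, and 0 of all tested miRNAs had an adjusted p below 0.05 (33 had an unadjusted p below 0.05). The two-sided exact permutation test on log2(CPM + 1) gave p = 0.7 for miR-132-3p and p = 0.5 for each of the other members, where 0.1 is the smallest p that 3 libraries against 3 allow. The groups overlapped for all 4 members, and did not overlap for 9.69% of the tested miRNAs. These intervals are wide enough to hold a change past the study's fold threshold downwards for every arm, and upwards for both arms of miR-132.

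Without tilianin-treated replicate 2 the estimates lay near 0 and the intervals narrowed. The log2 fold change was 0.12 (95% interval -0.41 to 0.64) for miR-132-3p, 0.014 (-0.67 to 0.69) for miR-132-5p, -0.066 (-0.66 to 0.53) for miR-212-3p and -0.090 (-0.63 to 0.45) for miR-212-5p. Both arms of miR-132 therefore turned from below 0 to above 0, and neither direction was past the error. In that fit 0 of 4 members were called, against 0.899% of 445 tested miRNAs called lower and 2.02% called higher. Leaving out 2VO replicate 3, the highest library, instead gave log2 fold changes of -0.10, -0.098, -0.25 and -0.24 in the same order. Without treated replicate 2, each interval stayed inside the study's fold threshold of 1 on the log2 scale in either direction. That fit rests on treated replicates 1 and 3 only. The library left out was the lowest for every arm, so its removal was bound to raise the estimates. These narrower intervals therefore do not exclude a change of that size.

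**Figure D2:**
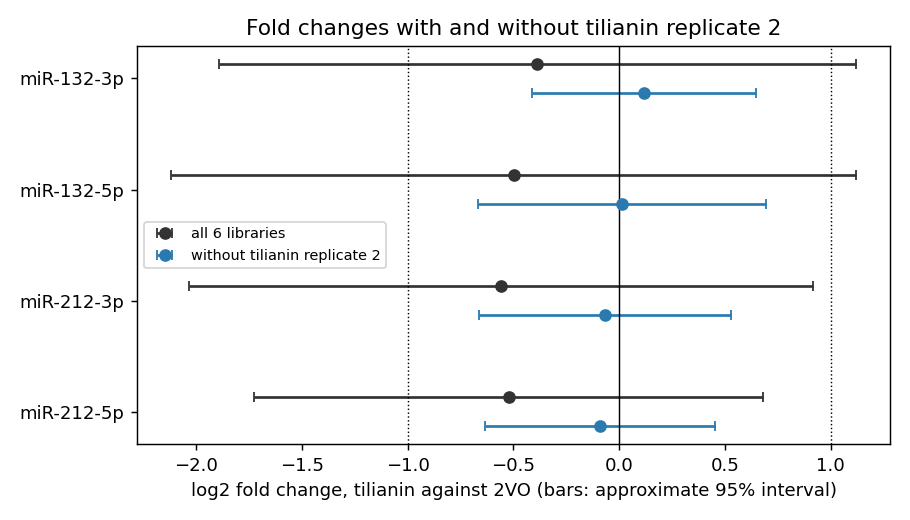
Log2 fold change of tilianin-treated against 2VO libraries for each arm, with approximate 95% intervals, from all 6 libraries (black) and without tilianin-treated replicate 2 (blue), with dotted lines at the fold threshold of 1 in either direction. All intervals hold 0, and leaving the library out moves the estimates from between -0.56 and -0.39 to between -0.090 and 0.12.

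Among the 2VO libraries themselves the members were uneven. 2VO replicate 3 was above the mean of 2VO replicates 1 and 2 by 1.66-fold for miR-132-3p, 1.98-fold for miR-132-5p, 1.74-fold for miR-212-3p and 1.67-fold for miR-212-5p. The coefficient of variation in the 2VO group was 31.7% for miR-132-3p, 42.7% for miR-132-5p, 36.3% for miR-212-3p and 34.2% for miR-212-5p. The median over the 269 tested miRNAs with a mean of at least 10 CPM was 11.6%, and the members stood at places 9 (miR-132-5p), 15 (miR-212-3p), 18 (miR-212-5p) and 20 (miR-132-3p) from the most variable. This is a description over 3 libraries. From the lowest to the highest 2VO library the level differed 1.77-fold for miR-132-3p, 2.09-fold for miR-132-5p, 2.05-fold for miR-212-3p and 1.99-fold for miR-212-5p.

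The 3p arm had fewer counts than the 5p arm of both hairpins in every library, and its share was far smaller for miR-212 than for miR-132. These are shares of counts as deposited, and the program and reference behind them are not given in the sources used here. Some miRNAs that are common in mammalian tissue had next to no counts in the table, with 1 to 8 per library for miR-21-5p, 6 to 13 for miR-30e-5p and 10 to 24 for miR-143-3p. Whether the counting also lost reads of an arm of miR-132 or miR-212 was not tested, so the shares cannot be read as the balance of arms in the tissue. Of the counts on the miR-132 arms, the 3p arm held 33.5, 33.7 and 29.9% in 2VO replicates 1, 2 and 3. In treated replicates 1, 2 and 3 it held 36.7, 34.6 and 31.2%. The group means were 32.4 ± 2.15% and 34.2 ± 2.79% (SD, n = 3 each), so that 1.72 to 2.35 counts of the 5p arm stood against each count of the 3p arm.

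Of the counts on the miR-212 arms, the 3p arm held 4.82, 4.72 and 4.95% in 2VO replicates 1, 2 and 3. The treated libraries had 4.48, 3.22 and 5.33% in replicates 1, 2 and 3. The 2VO libraries were nearly identical in this share, with 4.83 ± 0.114%, while treated libraries spread around them with 4.34 ± 1.06% (SD, n = 3 each). In treated replicate 2 the exact (Clopper-Pearson) 95% binomial interval was 2.76 to 3.74%, below the lowest bound of any other library, 4.24%. Its miR-212-5p was thus less reduced than its miR-212-3p by more than these intervals cover. Such gaps were not particular to this library. Treated replicate 3 (5.06 to 5.60%) lay apart from treated replicate 1 (4.24 to 4.74%). For the miR-132 arms, 2VO replicate 3 (29.2 to 30.6%) lay apart from 2VO replicate 2 (33.0 to 34.4%). These intervals cover counting error only and treat each count as independent. The sources used here mention no molecular identifiers, so copies of the same molecule may be counted more than once and the intervals may be too narrow. 

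**Figure D3:**
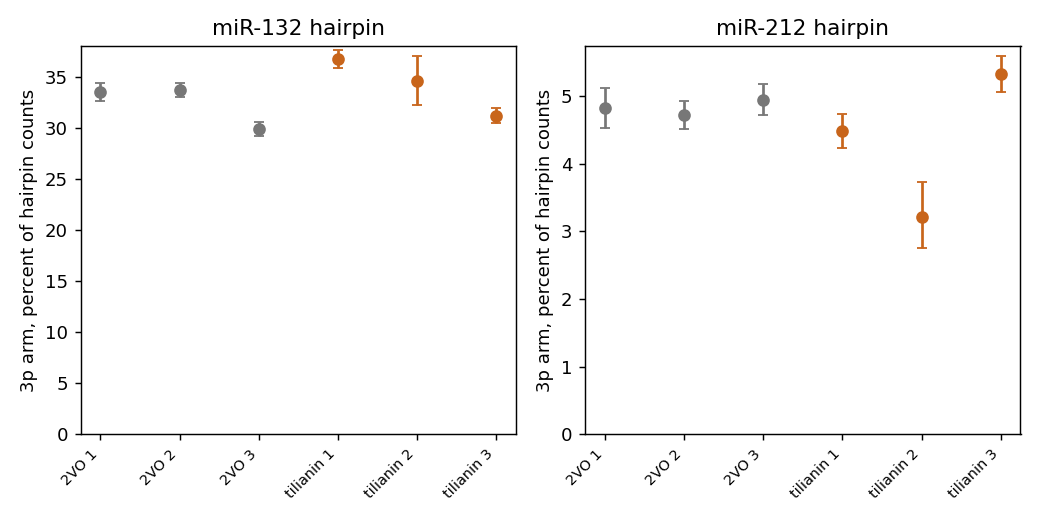
Share of the 3p arm among the counts on both arms of the miR-132 hairpin (left) and the miR-212 hairpin (right), in percent, per library, with exact 95% binomial intervals as bars, 2VO in grey and tilianin-treated in orange. The miR-132 share is 29.9 to 36.7% in all libraries, and the miR-212 share is 4.48 to 5.33% except in treated replicate 2, at 3.22%.

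Ratios within a library do not depend on how libraries are scaled, so 5 of them were compared between the groups on the log2 scale, each with a two-sided exact permutation test. For the arms of miR-132 the mean log2 ratio of 3p to 5p was -1.06 ± 0.143 in the 2VO group and -0.95 ± 0.180 with tilianin (SD, n = 3 each), differing by 0.12 (exact p = 0.4). For the arms of miR-212 it was -4.30 ± 0.0358 and -4.49 ± 0.383 (SD, n = 3 each), differing by -0.19 (exact p = 0.6), which became 0.017 without treated replicate 2. Neither hairpin thus showed a balance of arm counts that differed between groups beyond the spread of the libraries.

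Between the hairpins, the 3p arms kept nearly the same proportion in every library. There were 3.61, 3.01 and 3.13 counts of miR-132-3p for each count of miR-212-3p in 2VO replicates 1, 2 and 3, and 3.73, 3.29 and 3.56 in treated replicates 1, 2 and 3. The log2 ratio averaged 1.70 ± 0.139 in the 2VO group and 1.82 ± 0.0933 with tilianin (SD, n = 3 each), differing by 0.12 (exact p = 0.3). This proportion held also in treated replicate 2, where the 3p arms were at 85.2 and 25.9 CPM.

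Against other neurone-enriched miRNAs the 3p arm of miR-132 kept pace with miR-128-3p, a brain miRNA known to restrain neuronal excitability, and not with miR-124-3p, the most abundant neuronal miRNA here, in treated replicate 2. For each count of miR-132-3p there were 45.3, 39.5 and 41.1 counts of miR-128-3p in 2VO replicates 1, 2 and 3. In treated replicates 1, 2 and 3 there were 50.3, 45.6 and 38.8. The log2 ratio of miR-132-3p to miR-128-3p was -5.39 ± 0.103 in the 2VO group and -5.48 ± 0.189 with tilianin (SD, n = 3 each), differing by -0.092 (exact p = 0.6).

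For miR-124-3p the counts for each count of miR-132-3p were 197, 166 and 138 in 2VO replicates 1, 2 and 3. They were 191, 655 and 162 in treated replicates 1, 2 and 3. The log2 ratio of miR-132-3p to miR-124-3p was -7.37 ± 0.259 in the 2VO group and -8.09 ± 1.10 with tilianin (SD, n = 3 each), differing by -0.72 (exact p = 0.5), and the difference was -0.088 without treated replicate 2. With Benjamini-Hochberg adjustment over the 5 ratios, each had p = 0.6 from its exact permutation test.

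**Figure D4:**
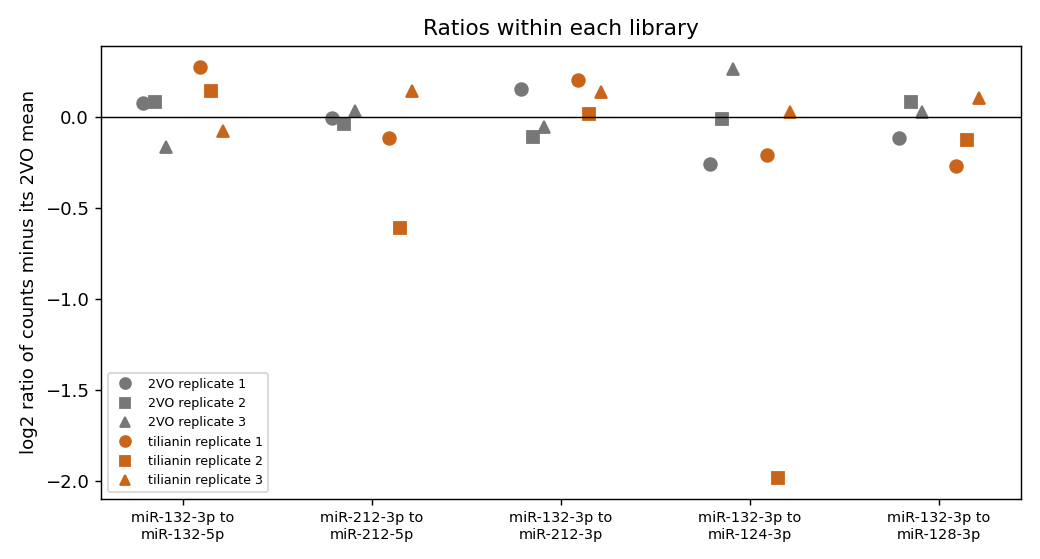
Log2 ratio of counts within each library minus the mean of the 2VO libraries, for the arms of miR-132, the arms of miR-212, the 3p arms of both hairpins, and miR-132-3p against miR-124-3p and miR-128-3p, with a marker per library. All points lie close to 0 except treated replicate 2 for the miR-212 arms and for miR-132-3p to miR-124-3p, where 655 counts of miR-124-3p stood against each count of miR-132-3p.

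Tilianin-treated replicate 2 was compared with the median of the other 5 libraries after its values had been seen, as a description. miR-132-3p was 5.65-fold, miR-132-5p 5.45-fold, miR-212-3p 5.72-fold and miR-212-5p 3.84-fold below that median. On the log2(CPM + 1) scale these differences were -2.48, -2.44, -2.47 and -1.94, against a median of -0.035 over the 269 tested miRNAs with a mean of at least 10 CPM and a range of -1.79 to 1.92 for the middle 90% of them. The members were at places 8, 9, 10 and 13 from the lowest of the 269. All 4 arms were thus among the 13 miRNAs furthest below the other libraries.

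Other miRNAs of neurons were lower in the same library, to unequal degrees. Of the 8 miRNAs of a neuronal list, miR-128-3p was 6.09-fold, miR-137-3p 3.62-fold and miR-153-3p 3.26-fold below the median of the other libraries, whereas miR-124-3p was 1.65-fold below it, miR-9a-5p 1.46-fold and miR-129-5p 1.02-fold. The summed level of the list was 131414 to 164465 CPM with vehicle, and 146229, 85850 and 162915 CPM in treated replicates 1, 2 and 3. None of its 8 members was at 0 in any library, 0 passed the criterion, and the median log2 fold change was -0.32 with all libraries and -0.049 without treated replicate 2, where all tested miRNAs had -0.034 and 0.0096.

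Several lists of other tissues and cell types had their highest summed level in that library. The summed Hox-cluster list (4 miRNAs) was 89.8 to 149 CPM among vehicle libraries, and 321, 21658 and 489 CPM in treated replicates 1, 2 and 3, with miR-196b-5p at 0 in all libraries. The erythroid list (3 miRNAs) summed to 155 to 198 CPM with vehicle, and 406, 881 and 338 CPM with tilianin. Nearly all of this sum was miR-486, at 876 CPM in treated replicate 2, and miR-451-5p had no more than 4 counts. The choroid plexus and epithelial list (3 miRNAs) summed to 120.1 to 151 CPM, and to 348, 1074 and 122 CPM. Its sum was nearly all miR-204-5p, at 1064 CPM in treated replicate 2. There miR-211-5p was at 8.47 CPM against 1.31 to 1.78 with vehicle, and miR-449a-5p at 0.924 CPM against 0.647 to 2.78. The muscle list (3 miRNAs) summed to 77.3 to 116 CPM, and to 163, 415 and 107 CPM. Of it, miR-133a-3p was at 358 and miR-206-3p at 57.0 CPM in treated replicate 2, and miR-1-3p had 1 count in 2VO replicate 1 only. The muscle sum leaves out miR-1b, which averaged 244 CPM with vehicle and was at 1969 CPM in treated replicate 2. Whether reads of miR-1-3p were counted under that name was not tested. The leukocyte and microglial list (5 miRNAs) summed to 774 to 1159 CPM, and to 1118, 1399.9 and 996 CPM. The oligodendrocyte list (3 miRNAs) was at 18.2 to 35.3 CPM, and at 31.7, 50.4 and 17.5 CPM, the endothelial list (2 miRNAs) at 5372 to 8553 CPM, and at 6863, 6509.5 and 7203 CPM, and the mesenchymal list (5 miRNAs, miR-199a-5p at 0 in all libraries) at 2.16 to 4.14 CPM, and at 4.89, 7.08 and 7.69 CPM. The oligodendrocyte sum leaves out miR-219b, which averaged 526 CPM with vehicle and 754 CPM with tilianin. The part of these lists in the level of miR-132 and miR-212 was not tested.

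**Figure D5:**
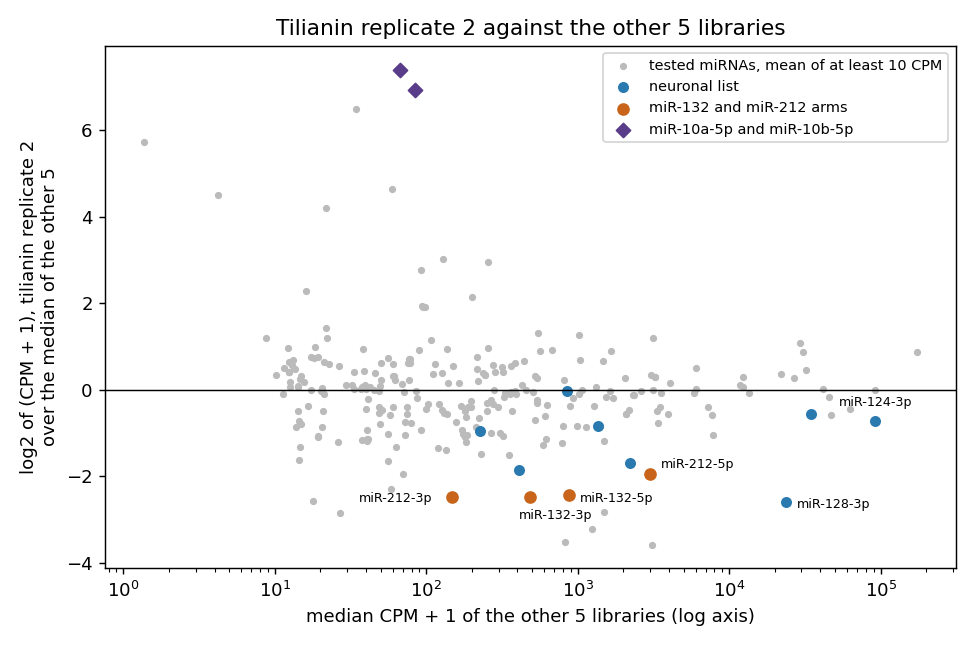
Log2 difference of (CPM + 1) between tilianin-treated replicate 2 and the median of the other 5 libraries, against that median plus 1 (log axis), for the 269 tested miRNAs with a mean of at least 10 CPM, with the miR-132 and miR-212 arms in orange, the neuronal list in blue and miR-10a-5p and miR-10b-5p as purple diamonds. The arms lie at -2.48 to -1.94, close to miR-128-3p at -2.61 and below miR-124-3p at -0.72.

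Other miRNAs described as regulated by neuronal activity, taken as a list, did not pass the criterion either. This list shares miR-124-3p, miR-138-5p and miR-9a-5p with the neuronal list above, so the lists are not independent of each other. Of the 12 on the list, 11 were tested, 0 were called in either direction, and 8 of these 11 had a log2 fold change below 0. Among all tested miRNAs 53.3% were below 0, a smaller share. Their fold changes lay between -0.42 and 0.41 on the log2 scale, with a median of -0.10, beside -0.034 for all tested miRNAs. miR-134-5p, a dendritic miRNA that represses the kinase Limk1, was at 94.3 to 116 CPM with vehicle and at 105, 173 and 119.9 CPM in treated replicates 1, 2 and 3, which is 0.29 on the log2 scale (standard error 0.240). It was thus highest where the miR-132 and miR-212 arms were lowest. miR-329-3p, a miRNA of the same large imprinted cluster as miR-134, was at 303 to 368 CPM and at 359, 152 and 229 CPM, which is -0.42 on the log2 scale (standard error 0.321). miR-138-5p, a synaptic miRNA known to limit dendritic spine size, was at 201 to 253 CPM and at 148, 115 and 276 CPM, which is -0.33 on the log2 scale (standard error 0.338). miR-184 had 1 count in all libraries together and was the list member that could not be tested.

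Across the 6 libraries, the miRNAs whose levels were most like those of miR-132-3p were its own relatives and brain miRNAs. By Pearson correlation of log2(CPM + 1) among tested miRNAs with a mean of at least 10 CPM, the 5 closest were miR-212-3p (r = 0.993), miR-132-5p (0.993), miR-128-3p (0.992), miR-495 (0.990) and miR-129-1-3p (0.984). Without treated replicate 2, over 5 libraries, the same pairs had r = 0.941, 0.968, 0.885, 0.870 and 0.832. For miR-212-3p the 5 closest were miR-212-5p (r = 0.995), miR-132-3p (0.993), miR-132-5p (0.993), miR-29a-3p (0.981) and miR-496-3p (0.980), with r = 0.972, 0.941, 0.948, 0.805 and 0.789 without treated replicate 2. The closest were picked as the highest of all tested miRNAs, the points share a library each, and treated replicate 2 sets most of the range, so these values are given as a description. This measure reads the order and spacing of libraries and not the size of a change. From treated replicate 2 to 2VO replicate 3, miR-495 ran from 133 to 283 CPM while miR-132-3p ran from 85.2 to 699 CPM.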

How the data were processed

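Total RNA was made into TruSeq small RNA libraries, and the authors deposited whole-number counts per mature miRNA for each library, without normalization. The submitters' processing notes name FastQC 0.11.2, Trimmomatic 0.36, cutadapt 1.14 and DESeq2 1.12.4. The aligner, miRNA reference, genome build and counting program are not given in the sources used here. Columns were matched to samples by library code, and 2VO replicate 3 carries code V4.

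miRNAs whose counts over all libraries reached 10 were scaled by TMM and tested in 1 fit on group by quasi-likelihood in edgeR 4.0.16 (R 4.3.3), adjusted over all miRNAs tested, with the thresholds of the study. Approximate standard errors and intervals came from each F statistic. Ratios had 0.5 counts added to each count. The code was tested on simulated data. The members, lists and naming rule (members, list members, seed partners, 5 most alike) were chosen with earlier results of these data known. Alternatives were DESeq2's size factors, library totals, DESeq2's Wald test (1.42.0), no filter, filterByExpr, a replicate block, a pseudocount of 1 for ratios, and each library left out.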

Additional observations from a re-analysis of the deposited data

How the results depend on the processing

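No alternative called any of the 4 arms. The fold changes of the arms kept their direction in all fits except without tilianin-treated replicate 2. Over the fits without 1 library the fold change on the log2 scale was -0.86 to 0.12 for miR-132-3p, -1.15 to 0.014 for miR-132-5p, -1.05 to -0.066 for miR-212-3p and -0.84 to -0.090 for miR-212-5p, the lowest values being without treated replicate 3 and the highest without treated replicate 2. The difference in the log2 ratio of the miR-212 arms was -0.36 to 0.017, with the same libraries at the ends. Correlations of deviations from the group means were -0.12, 0.0092 and 0.30 for replicate numbers 1, 2 and 3. With treated replicate 2 in the group means, these values cannot show whether the numbers pair the libraries. With the replicate block the log2 fold changes were -0.72, -0.85, -0.84 and -0.68 in the order above. Of the 454 tested miRNAs, 21 were called higher and 5 lower. With the replicate block 9 were called higher, and 8, 3 and 2 were called lower with library totals, DESeq2's Wald test and filterByExpr. The fits that left out a library called 7 (without 2VO replicate 2) to 29 (without treated replicate 1) higher and 2 (without 2VO replicate 2) to 5 lower. Of the 30 tested members of the cell type lists, 8 were called higher and 0 lower, beside 4.63% and 1.1% of all tested miRNAs, and the counts were 4 and 0 with the replicate block, and 5 to 9 and 0 to 1 (without treated replicate 3) with a library left out. The cause was not tested. The lowest count of any arm was 168, in treated replicate 2, and the part of depth was not tested.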

Other observations

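In tilianin-treated replicate 2, 7 of the 269 tested miRNAs with a mean of at least 10 CPM lay further below the median of the other 5 libraries than any miR-132 or miR-212 arm did, and they are named here after their values were seen. miR-221-3p and miR-222-3p, which share a seed and come from neighbouring hairpins like miR-132 and miR-212, were at 256 and 70.2 CPM against medians of 3073 and 821 CPM, and miR-221-5p was at 208 against 1489 CPM. miR-139-5p was at 133 against 1246 CPM and miR-128-3p at 3885 against 23657 CPM. The remaining pair, miR-7a-2-3p and miR-128-1-5p, were 9.38-fold and 8.40-fold below the median of the others. Both arms were thus low for miR-221 as for miR-132 and miR-212, in a library where miR-124-3p was 1.65-fold below the median of the others. This was not particular to them. Both listed arms were also low for miR-128, for miR-139 (3p arm 5.29-fold below) and for miR-153 (3p arm 3.26-fold and 5p arm 3.27-fold below).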
